A study of Mus musculus with 24 samples.

Results

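Stab1, Stab2, Lyve1, Mrc1, Fcgr2b, Clec4g, Cd36, Oit3, Dnase1l3 and Cd209f encode the scavenger and clearance proteins by which liver sinusoidal endothelial cells (LSECs) are commonly recognized. These 10 genes were taken by name from the 25361 genes of a table of TPM (read counts scaled by gene length and by library) from mouse embryonic livers at E12.5, and all 10 were found. They were followed through 24 libraries to ask how far they are transcribed in LSECs at E12.5 and whether loss of endothelial chromatin remodelers moves them. The libraries came from 2 fractions of each liver, 12 from cells held by microbeads against CD146, an adhesion molecule of endothelial cells (LSECs), and 12 from the liver cells that remained (non-EC cells).

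LSECs line the hepatic sinusoids, capillaries whose fenestrated wall lets plasma reach the hepatocytes. In the adult they are a main site of uptake of circulating waste, and they take up hyaluronan, collagen fragments, modified lipoproteins and small immune complexes through receptors that cycle between clathrin-coated pits and early endosomes. Several of these receptors are shared with tissue macrophages, so that a level in a mixed fraction can hold RNA of both cell types.

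Each fraction had 4 genotypes with 3 replicates. All mutants carried VE-cadherin-Cre+, a transgene that expresses Cre recombinase from an endothelial promoter. Chd4-ECko embryos had it with Chd4 fl/fl and Brg1 fl/+, Brg1-ECko embryos with Brg1 fl/fl and Chd4 fl/+, and double mutants (Brg1/Chd4-ECdko) with both genes fl/fl. Each single mutant was therefore also heterozygous for the other remodeler. Controls had no Cre and carried floxed alleles of both genes, and all groups were on a mixed genetic background. All libraries carry the same batch label. BRG1 (gene symbol Smarca4) is the ATPase of a SWI/SNF complex and CHD4 that of the NuRD complex. VE-cadherin-Cre is active in endothelium and also in some blood cells of the fetal liver, so that loss in the mutants is not limited to endothelium. In LSECs, Smarca4 was at 134 to 161 TPM in controls, 111 to 157 TPM in Brg1-ECko and, in double mutants, 117 to 151 TPM. Chd4 was at 246 to 285 TPM in controls, 168 to 252 TPM in Chd4-ECko and, in double mutants, 242 to 256 TPM. TPM over a whole gene include exons that Cre leaves in place, so these levels do not check the deletions.

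The fractions matched their labels in endothelial markers. A list of 12 pan-endothelial genes, including Cdh5, Kdr and Pecam1, summed to 784 to 1508 TPM in LSEC libraries and to 66.9 to 126 TPM in non-EC libraries. The LSEC libraries also held transcripts typical of other cells. Macrophage genes (20 listed) summed to 802 to 1949 TPM in them, mesenchymal genes (11 listed) to 1289 to 2219 TPM and hepatoblast genes (10 listed) to 3494 to 28361 TPM. In non-EC libraries macrophage genes summed to 359 to 834 TPM and mesenchymal genes to 70.0 to 241 TPM. One LSEC library stood apart, replicate 1 of Brg1-ECko. Its hepatoblast genes summed to 28361 TPM, against at most 8115 TPM in the other 11 LSEC libraries and 17415 to 37889 TPM in the non-EC libraries, so the values of the members and the gene lists in Brg1-ECko LSECs are also given without it. Mitochondrial genes took 13.9 to 31.5% of TPM among LSECs, against 2.33 to 7.69% among non-EC cells, and with the mitochondrial genes taken out 7 members were called between control fractions, as with them. In TPM, fewer cells of a type and less RNA per cell cannot be told apart.

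On GRCm39, the members lie on 7 chromosomes, and only Clec4g and Cd209f are near neighbours, 0.38 Mb apart on chromosome 8. Stab1 (ENSMUSG00000042286) spans chr14:30860970-30890598 and Stab2 (ENSMUSG00000035459) chr10:86675054-86843889, each with 69 exons in its canonical transcript. Lyve1 (ENSMUSG00000030787) spans chr7:110448585-110462460 with 6 exons, and Mrc1 (ENSMUSG00000026712) chr2:14234151-14336926 with 30 exons. Fcgr2b (ENSMUSG00000026656) spans chr1:170786186-170804177 with 7 exons, Cd36 (ENSMUSG00000002944) chr5:17986432-18094067 with 15, Clec4g (ENSMUSG00000074491) chr8:3757064-3770671 with 9 and Cd209f (ENSMUSG00000051906) chr8:4151166-4155847 with 8. The secreted proteins Oit3 (ENSMUSG00000009654) and Dnase1l3 (ENSMUSG00000025279) are encoded at chr10:59258780-59277702 with 9 exons and at chr14:14475200-14505240 with 8. Promoter sequences were available for 7 of the 10 members in a RefSeq table of GRCm38.p6, and the 250 bases before each transcription start were found once each, by exact match, on GRCm39. Lyve1, Oit3 and Dnase1l3 had no entry. The windows are shown for Stab2 and Mrc1, the pair of genes whose levels separated Brg1 fl/fl mutant LSECs from the other LSEC libraries (values given with the mutants), for the paralog Stab1, and for Clec4g and Cd209f, the lowest of the members. Each is written 5′ to 3′ in the direction of transcription, and capitals mark AGGAAG (a core recognized by ETS factors) or TGCTGA (the core of a MAF site) on either strand.
Stab2, chr10:86843807-86844056, minus strand: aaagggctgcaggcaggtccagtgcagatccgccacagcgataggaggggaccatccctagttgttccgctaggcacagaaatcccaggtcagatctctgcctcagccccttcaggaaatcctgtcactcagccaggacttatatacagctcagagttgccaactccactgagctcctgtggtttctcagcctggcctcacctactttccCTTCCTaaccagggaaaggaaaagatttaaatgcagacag
Mrc1, chr2:14233975-14234224, plus strand: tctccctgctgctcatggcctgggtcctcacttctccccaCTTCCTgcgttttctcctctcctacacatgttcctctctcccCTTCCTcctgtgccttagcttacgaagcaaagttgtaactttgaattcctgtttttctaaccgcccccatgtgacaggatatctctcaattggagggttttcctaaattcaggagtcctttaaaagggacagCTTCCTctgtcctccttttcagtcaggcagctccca
Stab1, chr14:30890599-30890848, minus strand: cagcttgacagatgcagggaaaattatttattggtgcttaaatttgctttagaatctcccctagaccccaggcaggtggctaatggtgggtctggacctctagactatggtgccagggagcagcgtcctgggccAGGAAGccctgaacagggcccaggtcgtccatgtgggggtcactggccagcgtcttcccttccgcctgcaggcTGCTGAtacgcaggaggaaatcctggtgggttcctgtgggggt
Clec4g, chr8:3770652-3770901, minus strand: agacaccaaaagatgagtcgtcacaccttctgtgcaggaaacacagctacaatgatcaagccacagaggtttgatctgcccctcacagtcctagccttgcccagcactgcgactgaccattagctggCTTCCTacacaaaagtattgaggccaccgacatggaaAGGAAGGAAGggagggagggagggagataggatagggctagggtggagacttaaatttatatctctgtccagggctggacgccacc
Cd209f, chr8:4155765-4156014, minus strand: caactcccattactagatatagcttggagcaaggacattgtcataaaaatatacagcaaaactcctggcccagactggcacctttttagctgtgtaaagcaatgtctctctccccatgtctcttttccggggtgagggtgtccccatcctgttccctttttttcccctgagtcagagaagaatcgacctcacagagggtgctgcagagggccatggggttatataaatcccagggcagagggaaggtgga
AGGAAG or its reverse complement CTTCCT occurred in 4 of the 7 windows (Stab1, Stab2, Mrc1 and Clec4g) and in 29.5% of all 32851 windows of this length in the table. Mrc1 held 3 matches, and Clec4g held 3, of which a pair overlapped by 2 bases. TGCTGA or TCAGCA occurred in 2 of 7 (Stab1 and Cd36) and in 16.1% of all windows. AGATAA or TTATCT, a core recognized by GATA factors, occurred in 0 of 7 and in 9.99% of all windows. The windows of Fcgr2b and Cd209f held none of the 3 motifs. The RefSeq start lay within 83 bases of the start of the GENCODE canonical transcript except for Cd36, where it was 14002 bases away.

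Control LSECs transcribed most of the clearance genes at E12.5, over a wide range of levels. TPM are scaled by gene length, so levels may be compared between genes. Lyve1, a hyaluronan receptor of lymphatic and sinusoidal endothelium, stood highest at 545 ± 102 TPM (SD, n = 3) and ranked 218 of the 25361 genes. Oit3, a secreted protein with a zona pellucida domain, followed at 248 ± 36.9 TPM (rank 499), and Mrc1, the mannose receptor CD206, which takes up collagen fragments and mannose-bearing glycoproteins, at 204 ± 18.5 TPM (rank 609). In the same libraries 12873 genes had a mean of at least 1 TPM.

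Stab2, the main endocytic receptor for hyaluronan, stood at 132 ± 16.2 TPM (rank 996). Its paralog Stab1, which takes up modified lipoproteins, stood at 64.4 ± 8.14 TPM (rank 2169), beside Cd36, a class B scavenger receptor and fatty acid transporter, at 62.7 ± 10.2 TPM (rank 2230). In the order of levels, the replicates of neighbours overlapped only between Oit3 and Mrc1 and between Stab1 and Cd36.

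The other 4 members were low. Dnase1l3, a secreted nuclease that degrades circulating chromatin, stood at 11.0 ± 4.49 TPM (rank 7858), and Fcgr2b, the inhibitory Fc receptor through which LSECs take up immune complexes, at 4.80 ± 1.20 TPM (rank 10245). The C-type lectin Clec4g (LSECtin) stood at 2.09 ± 0.708 TPM (rank 11825). Cd209f, a lectin of the DC-SIGN family, stood at 0.275 ± 0.175 TPM (rank 14426), below 1 TPM in every control LSEC library. Its relatives Cd209a, Cd209d and Cd209e were listed at 0 in all 12 LSEC libraries. The sinusoidal set was thus present unevenly, with its hyaluronan and mannose receptors high and its Fc receptor and lectins near the floor.

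**Figure D1:**
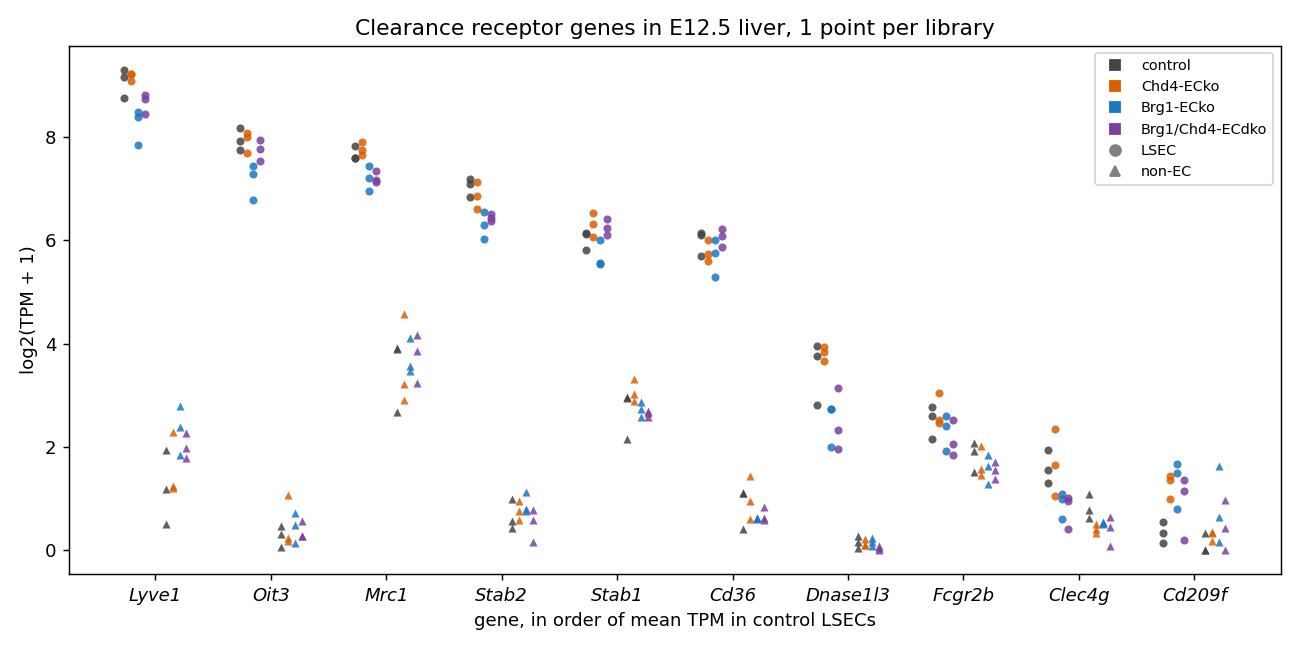
Levels of the 10 clearance genes as log2(TPM + 1), 1 point per library, with LSECs as circles and non-EC cells as triangles, colored by genotype and ordered by mean TPM in control LSECs. Lyve1, Oit3, Mrc1, Stab2, Stab1, Cd36 and Dnase1l3 lie above every non-EC library in all 12 LSEC libraries, whereas the points of Fcgr2b, Clec4g and Cd209f overlap between fractions.

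Comparison of LSECs with non-EC cells of control livers asked which members the CD146 fraction sets apart. Oit3 was 243, 287 and 213 TPM in control LSECs (replicates 1, 2 and 3) and 0.379, 0.0491 and 0.236 TPM in control non-EC cells. Lyve1 was 573, 630 and 432 TPM against 2.84, 0.415 and 1.27 TPM, and Stab2 was 135, 146 and 114 TPM against 1.00, 0.340 and 0.487 TPM. For each of these 3 genes, every LSEC library was far above every non-EC library. The ratio of mean TPM was 361 for Lyve1 and 216 for Stab2.

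Cd36 was 67.5, 69.7 and 51.0 TPM against 1.15, 0.334 and 1.16 TPM. Mrc1 was 225, 193 and 194 TPM against 13.9, 5.36 and 14.1 TPM, and Stab1 was 69.9, 68.3 and 55.0 TPM against 6.86, 3.47 and 6.71 TPM. Mrc1 and Stab1 therefore kept a measurable level outside the LSEC fraction, with ratios of 18.3 and 11.3, the smallest among the 7 members that passed the test. Dnase1l3 was 12.6, 14.6 and 5.99 TPM against 0.217, 0.112 and 0.0338 TPM, again without overlap. The macrophage markers Adgre1, Csf1r and C1qa had mean levels of 8.65, 19.7 and 23.7 TPM in control non-EC cells and 20.3, 23.7 and 74.6 TPM in control LSECs. Of the 19 listed macrophage genes tested between these fractions, 14 were higher in LSECs, 9 of them called, and 5 were lower, 2 of them called. The part of macrophage RNA in the levels of Mrc1 and Stab1 was not tested.

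With limma on log2(TPM + 1) and p-values adjusted by the Benjamini-Hochberg method over 13775 genes, 7 of 10 members were called higher in control LSECs (log2 fold change above 1 and adjusted p under 0.05), beside 19.4% of all genes tested. The log2 fold change was 7.86 (SE 0.31) for Lyve1, 7.67 (SE 0.22) for Oit3, 6.38 (SE 0.19) for Stab2, 5.10 (SE 0.22) for Cd36, 4.18 (SE 0.34) for Mrc1, 3.35 (SE 0.27) for Dnase1l3 and 3.33 (SE 0.19) for Stab1. The largest adjusted p among these 7 was 1.12e-09, for Mrc1. The median over the 10 members was 3.77 and over all genes -0.09. Of 11 mesenchymal genes 10 were also called higher in control LSECs, with a median of 4.29. All 12 pan-endothelial genes were called higher, with a median of 3.86. The part of mesenchymal RNA in the members' values was not tested. Stab2, Oit3, Dnase1l3, Clec4g and Cd209f reached 1 TPM in at most 1 of the 12 non-EC libraries and so entered the tests between fractions through LSECs, in which the called ones are high. The pseudocount of 1 TPM understates the differences of low genes.

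The remaining members showed small differences. Fcgr2b was 3.48, 5.84 and 5.09 TPM in control LSECs and 2.79, 1.86 and 3.20 TPM in control non-EC cells, with a log2 fold change of 0.68 (SE 0.24) and an adjusted p of 0.0158 (limma). Clec4g was 1.95, 2.85 and 1.46 TPM against 1.13, 0.549 and 0.725 TPM, with a log2 fold change of 0.77 (SE 0.25, adjusted p = 0.0113, limma). Both were higher in all 3 LSEC libraries without overlap, as were 34.9% of all genes tested, and neither passed the threshold on fold change. Cd209f was listed at 0 in 2 of 3 control non-EC libraries and at 0.258 TPM in the third, within the range of the control LSECs (log2 difference 0.23, SE 0.33, adjusted p = 0.551, limma).

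The same contrast within each mutant gave the same 7 members, and in Chd4-ECko also Clec4g (log2 fold change 1.27, SE 0.25, adjusted p = 0.000174, limma). In Brg1-ECko the differences were 5.91 (SE 0.31) for Lyve1, 5.40 (SE 0.19) for Stab2, 6.73 (SE 0.22) for Oit3 and 2.33 (SE 0.27) for Dnase1l3. When replicate 1 of Brg1-ECko LSECs was left out they were 6.10, 5.39, 6.92 and 2.21. Genes called higher in LSECs made up 21% of all genes tested for Chd4-ECko, 18.3% for Brg1-ECko and 19.8% for double mutants. The LSEC fraction of every genotype thus carried the same 7 clearance genes above its non-EC cells.

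**Figure D2:**
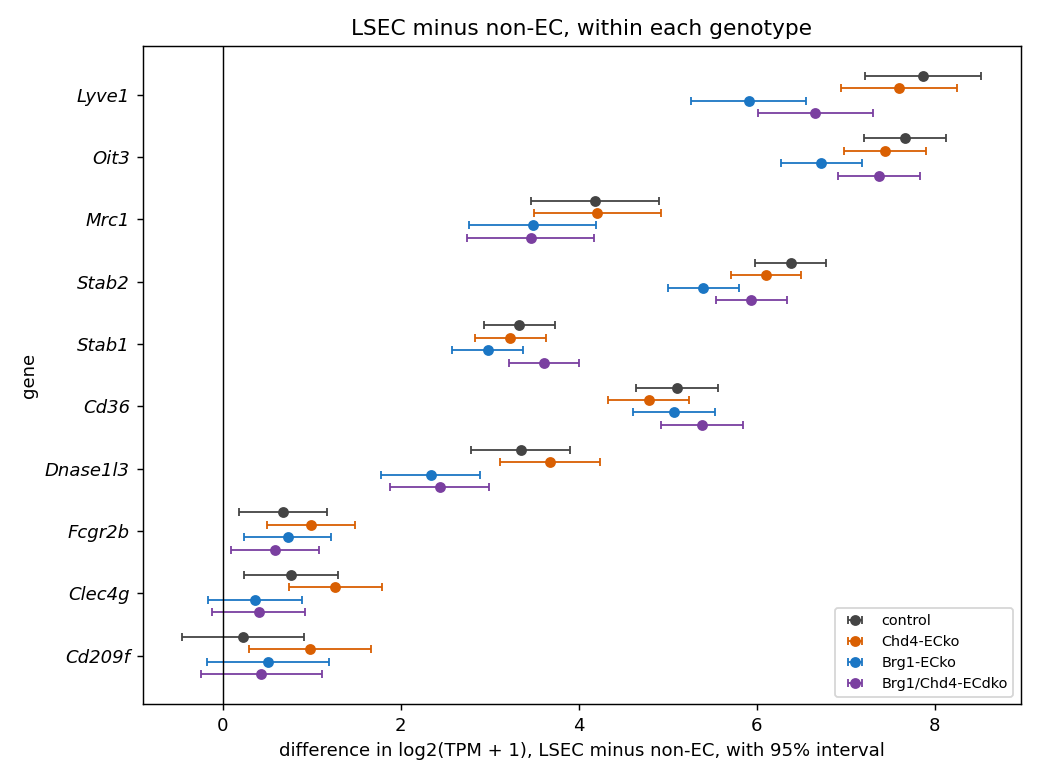
Difference in log2(TPM + 1) between LSECs and non-EC cells within each genotype, as points with 95% intervals from the model of all 24 libraries. The intervals of 7 members lie wholly above 2 in every genotype except those of Dnase1l3 in Brg1-ECko and in double mutants, which reach down to 1.78 and 1.88, and the intervals of Fcgr2b, Clec4g and Cd209f reach no higher than 1.79.

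Whether remodeler loss moves the clearance genes was asked in LSECs, by comparing each mutant with control LSECs over 13444 genes. No member was called in any mutant, beside 0.521% of all genes for Chd4-ECko, 0.0149% for Brg1-ECko and 0.565% for double mutants. At an adjusted p under 0.05 (limma) without a threshold on fold change, 0 members were found in any mutant, beside 0.707%, 0.0223% and 0.87% of all genes in the same order. At an unadjusted p under 0.05, 1 member was higher and 0 lower in Chd4-ECko, 1 higher and 6 lower in Brg1-ECko, and 0 higher and 5 lower in double mutants. The higher member was Cd209f for both single mutants, which passed the filter on low values only through mutant libraries. Of all genes, 5.46%, 7.13% and 10.9% were higher and 1.03%, 2.55% and 1.23% lower at this p, in the same order of mutants. These p-values rest on the spread between embryos within groups, pooled over the 12 LSEC libraries and moderated across genes. The comparisons share the control libraries and are given side by side.

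Stab2 was 135, 146 and 114 TPM in control LSECs, 116, 95.9 and 140 TPM in Chd4-ECko, 78.0, 63.9 and 93.1 TPM in Brg1-ECko, with 82.5, 85.8 and 90.4 TPM in double mutants. All 6 Brg1 fl/fl mutant libraries lay below all 6 others. Against control, it differed by a log2 fold change of -0.75 (95% interval -1.10 to -0.40, adjusted p = 0.182, limma) in Brg1-ECko, of -0.60 (-0.95 to -0.25, adjusted p = 0.131) in double mutants and of -0.18 (-0.53 to 0.17) in Chd4-ECko. Without replicate 1 of Brg1-ECko, the first of these was -0.76.

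Lyve1, the other hyaluronan receptor, was 573, 630 and 432 TPM in controls, 541, 593 and 597 TPM in Chd4-ECko, 230.0, 334 and 359 TPM in Brg1-ECko, with 349, 448 and 427 TPM in double mutants. Brg1-ECko libraries were below all controls, and replicate 1, the library with hepatoblast RNA, was the lowest. Double mutants overlapped the controls. Against control, the log2 fold change was -0.83 (-1.22 to -0.44, adjusted p = 0.183, limma) in Brg1-ECko, or -0.63 without its replicate 1, -0.41 (-0.80 to -0.01, adjusted p = 0.392) in double mutants and 0.10 (-0.29 to 0.49) in Chd4-ECko.

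Stab1 is the paralog of Stab2, and the difference between these genes was not tested. Stab1 was 69.9, 68.3 and 55.0 TPM in controls, 78.7, 65.8 and 91.7 TPM in Chd4-ECko, 45.5, 46.5 and 63.0 TPM in Brg1-ECko, with 67.8, 84.2 and 74.8 TPM in double mutants. All 3 mutants overlapped the controls. Its log2 fold change was 0.28 (-0.07 to 0.63) in Chd4-ECko, -0.32 (-0.67 to 0.03) in Brg1-ECko, or -0.24 without replicate 1, and 0.23 (-0.12 to 0.58) in double mutants.

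Mrc1 was 225, 193 and 194 TPM in controls, 216, 201 and 239.9 TPM in Chd4-ECko, 123, 147 and 172 TPM in Brg1-ECko, with 142, 139 and 162 TPM in double mutants. As for Stab2, all 6 Brg1 fl/fl mutant libraries lay below the other 6. Mrc1 differed from control by -0.48 (-0.77 to -0.18, adjusted p = 0.311, limma) in Brg1-ECko, or -0.35 without its replicate 1, and by -0.46 (-0.76 to -0.16, adjusted p = 0.177) in double mutants, on the log2 scale. In Chd4-ECko the difference was 0.10 (-0.20 to 0.40). Over the 12 LSEC libraries, Stab2 and Mrc1 were the 2 members that separated the 6 Brg1 fl/fl mutant libraries from the others, as did 0.231% of all genes in the lower direction. After scaling to a common pan-endothelial sum, an alternative added after the data were seen, neither gene separated them. Replicate 1 of Brg1-ECko then stood at 125 for Stab2, above all 3 controls (117 to 121), and at 197 for Mrc1, among the controls (161 to 205). This split of the libraries was looked at after the values were seen and is given as a description.

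**Figure D3:**
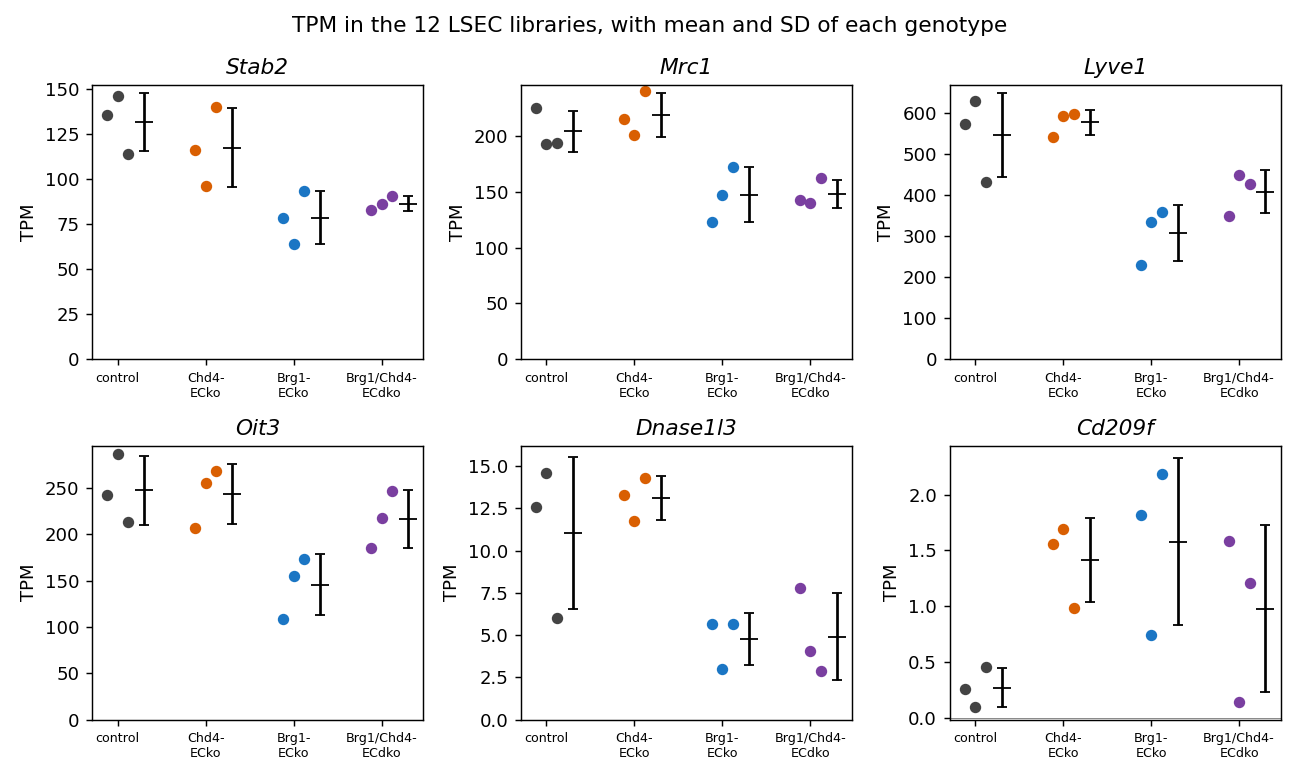
TPM of Stab2, Mrc1, Lyve1, Oit3, Dnase1l3 and Cd209f in the 12 LSEC libraries, 1 point per embryo, with the mean and SD of each genotype as a bar beside the points. Stab2 and Mrc1 are lower in each Brg1-ECko and each double-mutant library than in any control or Chd4-ECko library, whereas Cd209f is higher in Chd4-ECko and Brg1-ECko than in controls.

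Both lectins were low. Clec4g was 1.95, 2.85 and 1.46 TPM in controls, 1.06, 4.08 and 2.13 TPM in Chd4-ECko, 0.521, 0.981 and 1.11 TPM in Brg1-ECko, with 0.337, 1.03 and 0.928 TPM in double mutants. Brg1-ECko and double mutants lay below all controls, and the lowest Chd4-ECko library fell among them. Clec4g had a log2 fold change of -0.71 (-1.36 to -0.06, adjusted p = 0.480, limma) in Brg1-ECko, or -0.57 without replicate 1, and of -0.81 (-1.46 to -0.15, adjusted p = 0.308) in double mutants. Under the other settings it ranged from -1.18 to -0.50 in Brg1-ECko and from -1.41 to -0.73 in double mutants. Only 1 library of each of these mutants reached 1 TPM, against all 3 of controls and of Chd4-ECko, so Clec4g was tested through the groups in which it is high and the filter on low values favoured a lower value.

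Cd209f had higher mean values in all 3 mutants than in controls. It was 0.263, 0.105 and 0.455 TPM in control LSECs, 1.56, 1.69 and 0.987 TPM in Chd4-ECko, 1.81, 0.746 and 2.18 TPM in Brg1-ECko, with 1.58, 0.143 and 1.21 TPM in double mutants. Chd4-ECko and Brg1-ECko were above all controls, as were 8.7% and 10.9% of all genes tested, and 1 double-mutant library was among the controls. Its log2 fold change was 0.92 (0.26 to 1.57, adjusted p = 0.334, limma) in Chd4-ECko, 0.98 (0.33 to 1.64, adjusted p = 0.355) in Brg1-ECko, or 0.90 without replicate 1, and 0.56 (-0.09 to 1.22, adjusted p = 0.463) in double mutants. Under the other settings it ranged from 0.88 to 2.10, from 0.91 to 2.16 and from 0.41 to 1.23, in the same order of mutants. Cd209f entered the test through the mutant libraries, since no control reached 1 TPM, so the filter on low values favoured a difference in this direction.

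Fcgr2b was 3.48, 5.84 and 5.09 TPM in controls, 4.75, 7.26 and 4.51 TPM in Chd4-ECko, 2.81, 5.07 and 4.27 TPM in Brg1-ECko, with 4.73, 3.18 and 2.57 TPM in double mutants. Cd36 was 67.5, 69.7 and 51.0 TPM in controls, 47.6, 52.5 and 63.7 TPM in Chd4-ECko, 38.0, 52.9 and 63.5 TPM in Brg1-ECko, with 57.5, 67.2 and 73.9 TPM in double mutants. For both genes every mutant overlapped the controls, with log2 fold changes between -0.38 and 0.16 for Fcgr2b and between -0.30 and 0.08 for Cd36. Leaving out replicate 1 of Brg1-ECko moved the values of that mutant from -0.20 to -0.01 for Fcgr2b and from -0.30 to -0.10 for Cd36.

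Of the secreted proteins, Oit3 was 243, 287 and 213 TPM in controls, 207, 255 and 268 TPM in Chd4-ECko, 109, 155 and 173 TPM in Brg1-ECko, with 185, 218 and 247 TPM in double mutants. Only Brg1-ECko lay below all controls, with a log2 fold change of -0.78 (-1.17 to -0.39, adjusted p = 0.211, limma), or -0.58 without its replicate 1. Oit3 in double mutants was at -0.19 (-0.58 to 0.20).

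Dnase1l3 was 12.6, 14.6 and 5.99 TPM in controls, 13.3, 11.7 and 14.3 TPM in Chd4-ECko, 5.64, 3.01 and 5.67 TPM in Brg1-ECko, with 7.80, 4.06 and 2.91 TPM in double mutants. Brg1-ECko lay below the controls by a narrow margin, since control replicate 3 was low, and 1 double-mutant library was above that control. Dnase1l3 differed from control by -1.02 (-1.72 to -0.32, adjusted p = 0.386, limma) in Brg1-ECko, or -1.14 without replicate 1, by -1.03 (-1.73 to -0.33, adjusted p = 0.204) in double mutants and by 0.30 (-0.40 to 1.00) in Chd4-ECko, on the log2 scale.

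**Figure D4:**
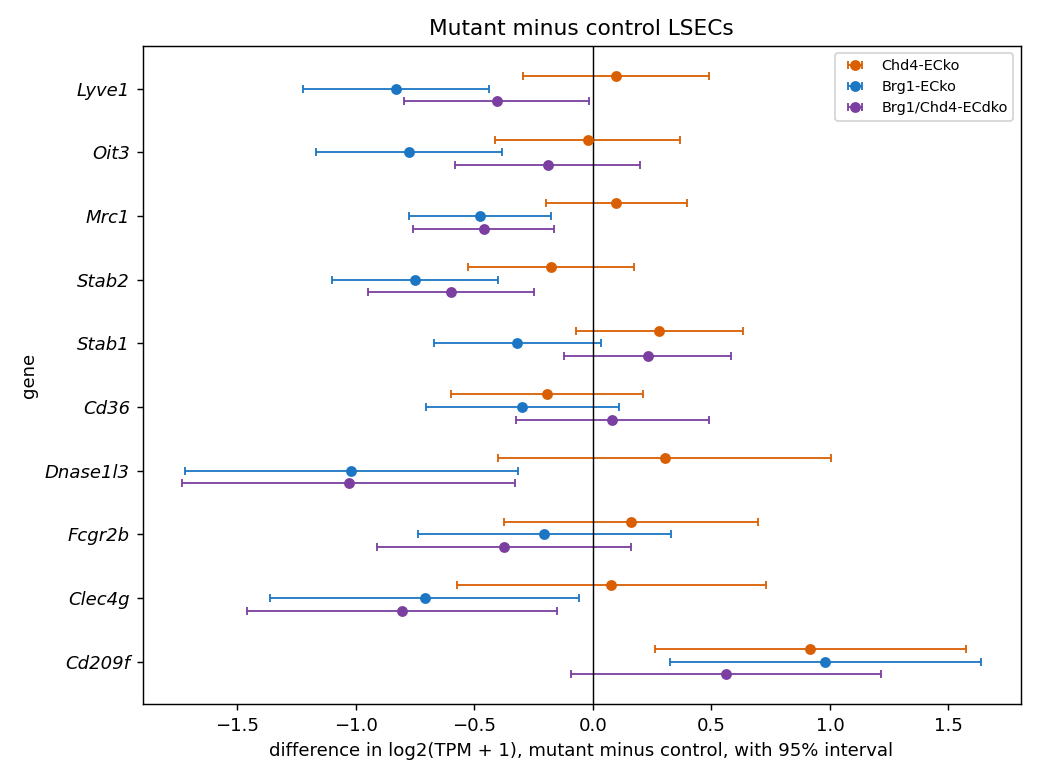
Difference in log2(TPM + 1) between mutant and control LSECs for the 10 members, as points with 95% intervals of single genes, not adjusted for the number of genes. In Brg1-ECko the intervals of Lyve1, Oit3, Mrc1, Stab2, Dnase1l3 and Clec4g lie below 0, and in Chd4-ECko only that of Cd209f, tested through its mutant libraries, does not cross 0.

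As a set, 9 of 10 members were lower in Brg1-ECko than in control LSECs, with a median log2 fold change of -0.59, while 34.8% of all genes were lower and the median over all genes was 0.08. In 6 members the Brg1-ECko libraries lay wholly below the controls, as did 3.71% of all genes. Clec4g, tested only through control and Chd4-ECko libraries, is among these 6, among the 6 with an unadjusted p under 0.05 and among the genes counted for double mutants. In double mutants 7 of 10 members were lower (23.3% of all genes), the median was -0.39 (0.16 over all genes), and Stab2, Mrc1 and Clec4g did not overlap the controls (2.29% of all genes). In Chd4-ECko 3 of 10 were lower (48.4% of all genes), with a median of 0.10 (0.01 over all genes). Without replicate 1 of Brg1-ECko, 9 members were still lower than control, 5 of them at an unadjusted p under 0.05 (limma, 1.39% of all genes), and the median was -0.46.

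Other endothelial genes were lower as well. All 12 pan-endothelial genes were lower in Brg1-ECko than in control LSECs, 7 at an unadjusted p under 0.05 and 0 at an adjusted p under 0.05 (limma), with a median of -0.46. Their sum was 1186 to 1508 TPM in controls, 1259 to 1434 in Chd4-ECko, 784 to 1302 in Brg1-ECko, and 1154 to 1399 in double mutants. Without replicate 1 of Brg1-ECko, 10 of 12 were lower, with a median of -0.27. Of 11 tested genes of continuous or large-vessel endothelium, 9 were lower in Brg1-ECko, 7 at an unadjusted p under 0.05 and 0 called (limma). The median was -0.55, or -0.36 without replicate 1. In Chd4-ECko 8 were lower, 3 of them called, with a median of -0.43, and in double mutants 9 were lower, 2 of them called. This list summed to 408 to 516 TPM in Chd4-ECko and to 546 to 726 TPM in controls. When LSEC values were scaled to 1 common pan-endothelial sum, an alternative added after the data were seen, the log2 fold change in Brg1-ECko was -0.41 for Lyve1, -0.36 for Oit3, -0.34 for Stab2, -0.06 for Mrc1 and -0.65 for Dnase1l3, while Stab1, Cd36 and Fcgr2b turned to 0.09, 0.11 and 0.13. The same scaling left Stab2 at -0.48, Mrc1 at -0.34 and Dnase1l3 at -0.91 in double mutants. It moved the median of all genes from 0.08 to 0.46 in Brg1-ECko and from 0.16 to 0.26 in double mutants. The scaling multiplies all genes of a library alike, so a turned sign is not particular to a gene. It moves the log2 fold changes and their median together, so the place of a gene well above the pseudocount, relative to that median, changes little. As a set, 6 of 10 members were then lower in Brg1-ECko, 2 at an unadjusted p under 0.05 (limma, 0.349% of all genes), with a median of -0.20. At that p 1 member was higher, beside 44.8% of all genes after the scaling and 7.13% before it. For double mutants 7 were lower, 3 at that p (0.66% of all genes), with a median of -0.28. The part of endothelial content in the members' values was not tested.

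Markers of other cells differed too. All 10 hepatoblast genes had higher values in Brg1-ECko LSECs, 10 of them at an unadjusted p under 0.05 and 0 after adjustment (limma), with a median of 1.18. The size of this difference and the count at that p rest on replicate 1. Without it all 10 were higher by a median of 0.48 and 0 had an unadjusted p under 0.05 (limma). Replicates 2 and 3 summed to 6551 and 7033 TPM, within the 3494 to 7136 TPM of controls. In double mutants all 10 were also higher, 0 at an unadjusted p under 0.05, with a median of 0.42. Macrophages also transcribe Mrc1 and Stab1, whose values are given above. Macrophage genes were higher in 19 of 19 tested in Chd4-ECko, 16 at an unadjusted p under 0.05 and 4 called (limma). Their sums were 1127 to 1949 TPM there, against 802 to 1182 TPM in controls. The macrophage sum was 920 (replicate 1) to 1387 TPM in Brg1-ECko, with 996 to 1603 TPM in double mutants. Of the 19 tested, 18 were higher in Brg1-ECko, 8 at an unadjusted p under 0.05 and 0 called (limma), with a median of 0.43. Without its replicate 1, 19 were higher, 12 at that p, with a median of 0.59. In double mutants 18 were higher, 9 at that p and 1 called, with a median of 0.58. The part of these cells in the members' values was not tested.

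**Figure D5:**
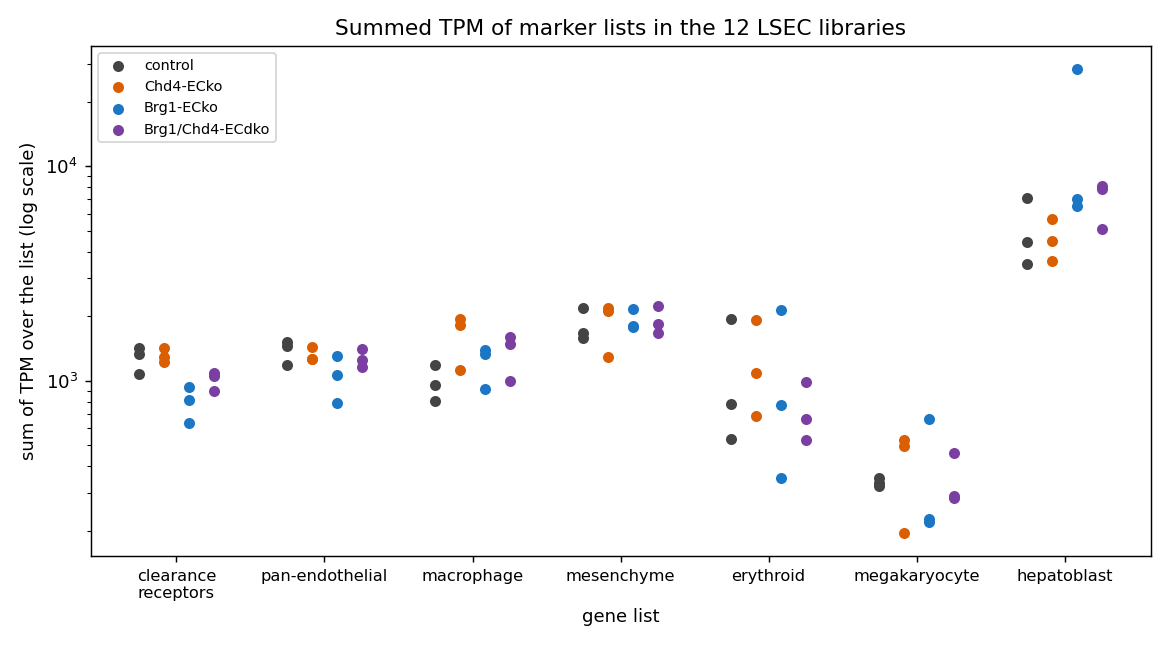
Summed TPM of the 10 clearance genes and of 6 marker lists in the 12 LSEC libraries, on a log axis, 1 point per library colored by genotype. The clearance sum is 634 to 937 TPM in Brg1-ECko and 1072 to 1417 TPM in controls, and replicate 1 of Brg1-ECko stands apart in the hepatoblast list at 28361 TPM.

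The mutants were also compared with each other. Lyve1 was higher in Chd4-ECko than in Brg1-ECko LSECs by 0.93 on the log2 scale (SE 0.18, adjusted p = 0.0442, limma), with no overlap of the groups. This was the only member with an adjusted p under 0.05 in any comparison of LSEC genotypes (0.394% of all genes were higher at that threshold), and it did not reach the threshold on fold change. With 1 of the 6 libraries left out, the adjusted p of Lyve1 was 0.0410 without Brg1-ECko replicate 3, 0.0918 without Brg1-ECko replicate 1, 0.0870 without Brg1-ECko replicate 2, and 0.0732, 0.206 and 0.236 without Chd4-ECko replicates 1, 2 and 3, at differences from 0.73 to 1.05. In the same comparison, 7 members were higher at an unadjusted p under 0.05 (4.4% of all genes), among them Dnase1l3 at 1.32 (SE 0.33), Oit3 at 0.75 (SE 0.18), Stab1 at 0.60 (SE 0.16), Mrc1 at 0.58 (SE 0.14) and Stab2 at 0.57 (SE 0.16). Clec4g is the seventh, at 0.79 (SE 0.30), and was tested through the groups in which it is high. In 6 members the groups did not overlap (4.89% of all genes). With replicate 1 of Brg1-ECko left out, 6 members were higher at an unadjusted p under 0.05 (limma, 4.07% of all genes) and 0 after adjustment. The adjusted p of Lyve1 was also over 0.05 under 4 other settings, at 0.0899 with no filter on low values, 0.0719 with moderation without a trend, 0.182 with these 2 groups compared alone and 0.142 after pan-endothelial scaling, where the difference was 0.57. After that scaling 4 members were higher at an unadjusted p under 0.05 (limma), beside 0.876% of all genes, and 30% of all genes were lower. Stab1, Mrc1 and Stab2 were then at 0.25, 0.22 and 0.22.

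Double-mutant LSECs were lower than Chd4-ECko LSECs in 9 of 10 members (26.8% of all genes), 6 of them at an unadjusted p under 0.05 (1.58% of all genes) and 0 after adjustment (limma, 0.0372% of all genes). In 5 members they lay wholly below (2.25% of all genes). Both counts hold Clec4g, which was tested through control and Chd4-ECko libraries, the higher side here. The log2 difference was -1.33 (SE 0.33, adjusted p = 0.331) for Dnase1l3, -0.56 (SE 0.14, adjusted p = 0.331) for Mrc1, -0.50 (SE 0.18, adjusted p = 0.469) for Lyve1 and -0.42 (SE 0.16, adjusted p = 0.469) for Stab2. With only these groups in the model Dnase1l3 was called (adjusted p = 0.00546, limma), beside 0.396% of all genes. Against Brg1-ECko, the double mutant was higher at an unadjusted p under 0.05 in Oit3 (0.58, SE 0.18), Stab1 (0.55, SE 0.16) and Lyve1 (0.42, SE 0.18), beside 5.04% of all genes, and 0 members were after adjustment (limma, 0.0967% of all genes). Oit3 and Stab1 did not overlap between these mutants (7.48% of all genes). When Brg1-ECko replicate 1 was left out, 2 members had an unadjusted p under 0.05 (limma, 4.81% of all genes), Stab1 at 0.47 and Oit3 at 0.39, and Lyve1 was at 0.23. After pan-endothelial scaling 0 had (1.12% of all genes). These comparisons reuse the same mutant libraries. Mrc1 and Stab2 differed little between these mutants, by 0.02 (95% interval -0.28 to 0.31) and 0.15 (-0.20 to 0.50).

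In non-EC cells, 5 members (Stab1, Lyve1, Mrc1, Fcgr2b and Cd36) were high enough to be tested against control over 12223 genes, and 0 were called in any mutant, beside 0.884% of all genes for Chd4-ECko, 1.37% for Brg1-ECko and 0.115% for double mutants. At an unadjusted p under 0.05 (limma), 1 member was found, Lyve1 in Brg1-ECko, where 17.5% of all genes were higher at that p. Lyve1 was 2.84, 0.415 and 1.27 TPM in control non-EC cells and 2.58, 5.89 and 4.23 TPM in Brg1-ECko, a log2 difference of 1.13 (SE 0.39, adjusted p = 0.0860, limma) at levels far under those of LSECs. All 10 hepatoblast genes were also higher in these Brg1-ECko non-EC libraries than in controls, 3 of them called. All 11 erythroid genes tested were lower, 1 of them called (limma). The pan-endothelial sum was 83.6 to 126 TPM in them, highest in replicate 2, against 66.9 to 92.9 TPM in controls. The part of cell content in the Lyve1 values was not tested. In LSECs the Brg1-ECko value of Lyve1 was -0.83, and the test of the difference between these effects gave -1.96 (SE 0.44, adjusted p = 0.0336, limma). This was 1 of 10 members (0.639% of all genes were called), and without the LSEC library with hepatoblast RNA it was -1.76 with an adjusted p of 0.0816. Stab2 was at -0.98 (SE 0.27, adjusted p = 0.0777) in the same test. The remaining members had an adjusted p of at least 0.134, and 0 members were called in the corresponding tests of Chd4-ECko (0.69% of all genes) and of double mutants (0.0581%). At an unadjusted p under 0.05 (limma), 4 members were found for Brg1-ECko, all in the lower direction (7.2% of all genes). Of 12 pan-endothelial genes, 11 were lower in the same test, 6 of them at that p. Without replicate 1 of Brg1-ECko LSECs, 4 members (7.47% of all genes) and 4 pan-endothelial genes were lower at that p. For Chd4-ECko 0 members were found (12.3% of all genes in the higher and 6.73% in the lower direction). For double mutants 2 were found, Lyve1 and Dnase1l3, both in the lower direction (2.48% of all genes). Stab2, Oit3 and Dnase1l3 entered these tests through LSECs alone and had at most 1.19 TPM in any non-EC library, where the pseudocount of 1 TPM leaves little room for an effect, so their differences of effects are no evidence beyond the LSEC values.

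Other clearance receptors gave context. Of 42 further receptors listed, 35 were tested between fractions in controls, and 18 were called higher and 4 lower in LSECs. In Chd4-ECko LSECs 2 of 34 were called higher than control, Msr1, a class A scavenger receptor of macrophages, at 1.83 (adjusted p = 0.00345, limma) and Fcgr3, an activating Fc receptor of myeloid cells, at 1.40 (adjusted p = 0.0397). In double mutants only Msr1 was called (1.56, adjusted p = 0.0105), and in Brg1-ECko 0 were. Msr1 was 16.2 ± 3.91 TPM in control LSECs and 62.1 ± 21.6 TPM in Chd4-ECko, and the macrophage sum was above all controls in 2 of these 3 Chd4-ECko libraries. The part of macrophage RNA in this difference was not tested. The 33 endocytic and lysosomal genes had 0 calls in any mutant (limma), with 5 higher and 0 lower, 1 higher and 3 lower, and 5 higher and 1 lower at an unadjusted p under 0.05 and medians of 0.12, 0.04 and 0.10 in Chd4-ECko, Brg1-ECko and double mutants, in this order. Of 24 other genes typical of LSECs, such as Gata4 and Flt4, 22 were called higher and 1 lower in control LSECs than in non-EC cells. In Chd4-ECko 12 of these 24 were lower than control, 1 was called higher, and the median was -0.01. In double mutants 13 were lower, 1 of them called, with a median of -0.01. Between single mutants 2 were called higher in Chd4-ECko than in Brg1-ECko (limma, 0.268% of all genes). In Brg1-ECko 19 of these 24 were lower than control, 12 at an unadjusted p under 0.05 and 0 after adjustment (limma), with a median of -0.36. Leaving out replicate 1 of Brg1-ECko gave 16 lower, 7 at that p, and a median of -0.20. It gave 0 calls among the other receptors, and of the endocytic genes 2 were then higher and 1 lower at that p, with a median of 0.07.

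Genes whose levels varied with those of Stab2 and Mrc1 within genotypes were listed over the 12 LSEC libraries, after group means were subtracted, among 10425 genes with a mean of at least 5 TPM. The genes most like Stab2 were Cdc42bpb, Stk11ip, Notch1, Dctn1 and Sptan1 (Pearson r from 0.938 to 0.920), and Stab1 came 59th with 0.855. The genes most like Mrc1 were Smtnl2, Kif26a, Lhx2, Fmnl2 and Camk2d (r from 0.981 to 0.953), and the r of Mrc1 with Stab2 was 0.541. All points share the library composition, and the values are a description.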

How the data were processed

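TPM of 24 libraries were used. The authors digested E12.5 livers with transcription inhibitors, selected cells with CD146 microbeads, trimmed repeated guanines, mapped them with CLC Genomics Workbench (version not given in the sources used here) on GRCm39/mm39 and deposited TPM per gene. The 8 columns of group means they deposited were not used, and 0 columns belonged to other samples. TPM keep no library size, so the depth behind a value is unknown. Each library came from a single embryo.

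The tests used log2(TPM + 1) and limma 3.58.1 under R 4.3.3, with 1 mean per group, variances moderated with a trend, two-sided tests and Benjamini-Hochberg adjustment. Models held the 12 libraries of a fraction, or all 24 for contrasts of fractions, and genes that reached 1 TPM in 3 or more libraries. A gene was called at an adjusted p under 0.05 with a fold change of over 1 on the log2 scale in either direction. Files were read with the R package data.table (1.17.8) and with python 3.11.15 (pandas 2.3.3, numpy 2.4.6), and figures were drawn with matplotlib 3.10.9. Data simulated for Chd4-ECko against control LSECs were judged by an adjusted p under 0.05 alone, without the fold threshold. With 200 of 13311 genes changed by 2 on the log2 scale, 96% passed beside 22 other genes. With 200 of 13307 changed by 1, 83.5% passed beside 14 others, and with no gene changed 0 passed. The changed genes were drawn from those with a mean log2(TPM + 1) over 3, so recovery of lower genes was not tested.

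The labels number replicates 1 to 3 in every group. Within a genotype, LSEC and non-EC libraries with the same number deviated together in 12 of 12 pairs (correlations of 0.141 to 0.495), so they were treated as pairs in an alternative of the fraction contrasts. The main model did not use the pairs. With them, 7 members were again called higher in control LSECs, beside 19.4% of all genes, with a largest adjusted p of 7.27e-08 (limma, Mrc1). The difference of the Brg1-ECko effect on Lyve1 then had an adjusted p of 0.0458 (limma).

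The members and gene lists were chosen with earlier results of these data known. Named beside the members are, from each list, at most the 3 called genes with the largest change and its markers of highest or defining level, and the 5 genes most correlated with Stab2 and with Mrc1. Gata4 and Flt4 fall under the first part. Cd209a, Cd209d and Cd209e were named after their values were seen. Alternatives were another pseudocount, filters, quantile normalization, TPM without mitochondrial genes, moderation without a trend, a replicate block, no fold threshold, the compared groups alone, pan-endothelial scaling and each library left out.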

Additional observations from a re-analysis of the deposited data

Results flagged for a closer look

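The Brg1-ECko effect on Lyve1 differed between LSECs and non-EC cells by -1.96 on the log2(TPM + 1) scale (SE 0.44, adjusted p = 0.0336, limma), by a test of the difference itself. All 3 Brg1-ECko LSEC libraries were below all 3 control LSEC libraries, while 2 of 3 Brg1-ECko non-EC libraries were above all control non-EC libraries, at 0.415 to 5.89 TPM in these 6 libraries. Without replicate 1 of the Brg1-ECko LSECs, the library with hepatoblast RNA, the difference was -1.76 with an adjusted p of 0.0816. The call was also lost without LSEC control replicates 1 or 2, non-EC control replicates 2 or 3, and non-EC Brg1-ECko replicates 2 or 3, each left out alone. It was lost as well with a pseudocount of 0.1 TPM, with no filter on low values and with the groups compared alone. Hepatoblast genes were higher and erythroid genes lower in the same Brg1-ECko non-EC libraries, as given in the Results.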

How the results depend on the processing

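No member was called against control LSECs in any mutant under any of the alternatives run. The 7 members called between fractions in controls stayed at 7 when any 1 of the 6 control libraries was left out. The count was 6 with a mean of at least 5 TPM, a filter under which Dnase1l3 was not tested. It was 8 with a pseudocount of 0.1 TPM and 9 without the fold threshold. Genes called higher made up 15.9%, 23.5% and 31.3% of all genes, in the same order. Stab2 in Brg1/Chd4-ECdko against control had an adjusted p of 0.0223 with the groups compared alone (limma), under the fold threshold, against 0.131 in the model of all 12 libraries and 0.0715 to 0.466 under the others. The number of members called for the difference of the Brg1-ECko effect between fractions was 1, and it was 0 with a pseudocount of 0.1 TPM, with no filter on low values and with the groups compared alone, 2 with quantile normalization, and 0 to 2 with 1 library left out. Of all genes, 0.639% were called in the main model and 0.82%, 0.373%, 0.396%, 0.886% and 0.276 to 1.34% under these settings, in the same order. Chd4-ECko against Brg1-ECko LSECs gave 1 member (Lyve1) without the fold threshold and 0 to 1 with 1 library left out. Brg1/Chd4-ECdko against Chd4-ECko gave 1 (Dnase1l3, adjusted p = 0.00546, limma) with the groups compared alone. This was beside 0.396% of all genes, against 0.0372% in the main model. Brg1-ECko against control non-EC cells gave 0 to 1 with 1 library left out, beside 0.656 to 2.61% of all genes. The cause was not tested.

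Some directions turned under the alternatives. Quantile normalization turned Cd36 in Brg1/Chd4-ECdko against control to -0.032 and Cd209f between fractions in controls to -0.068, and TPM without mitochondrial genes turned Mrc1 in Brg1/Chd4-ECdko against Brg1-ECko to -0.012. Pan-endothelial scaling turned Oit3 in Chd4-ECko to 0.039 and, in Brg1-ECko, Stab1 to 0.091, Fcgr2b to 0.13 and Cd36 to 0.11. It also turned Stab1 in Brg1/Chd4-ECdko against Chd4-ECko to 0.0078, Stab2 and Mrc1 in Brg1/Chd4-ECdko against Brg1-ECko to -0.14 and -0.28, and Cd36 in Chd4-ECko against Brg1-ECko to -0.25. With 1 library left out, Chd4-ECko against control ranged from -0.061 to 0.21 for Lyve1, -0.022 to 0.29 for Fcgr2b, -0.26 to 0.40 for Clec4g, -0.12 to 0.090 for Oit3 and -0.049 to 0.53 for Dnase1l3. Brg1/Chd4-ECdko ranged from -0.057 to 0.18 against control for Cd36, from -0.17 to 0.064 against Chd4-ECko for Stab1, and against Brg1-ECko from -0.11 to 0.13 for Mrc1, -0.24 to 0.093 for Clec4g and -0.34 to 0.25 for Dnase1l3. Chd4-ECko against Brg1-ECko ranged from -0.10 to 0.27 for Cd36 and from -0.32 to 0.11 for Cd209f.

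Same-numbered LSEC libraries of different genotypes correlated in their deviations by over 0.1 in 13 of 18 pairs (lowest -0.043, mean 0.17) and not in every pair, so the numbers were not taken as pairs there. With a replicate block, 0 members were called against control and 1 was called for the difference of the Brg1-ECko effect (0.486% of all genes). Chd4-ECko against Brg1-ECko then gave 2 members at an adjusted p under 0.05 (limma), Lyve1 (0.0221) and Oit3 (0.0360), beside 0.543% of all genes in the higher direction. Calls over all genes against control were 70 for Chd4-ECko, 2 for Brg1-ECko and 76 for double mutants. They were 39 to 104, 0 to 5 and 46 to 133 under other settings, and with 1 library left out 28 (without Chd4-ECko replicate 3) to 147 (without Chd4-ECko replicate 1), 0 (without any 1 control or Brg1-ECko replicate 2) to 6 (without Brg1-ECko replicate 3) and 24 (without double-mutant replicate 3) to 78 (without double-mutant replicate 1). The depth is unknown, and members under 5 TPM carry the least certain values.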
